A study of Homo sapiens with 5 samples.

Results

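The aryl hydrocarbon receptor pathway was followed through 6 genes in LNCaP, a line of human prostate cancer cells that respond to androgen, exposed for 6 h to celastrol or its solvent DMSO. The 6 were the receptor gene AHR, its partner ARNT, the cytochrome P450 genes CYP1A1, CYP1A2 and CYP1B1, and the feedback gene TIPARP, out of 12165 genes that the arrays named. They were taken as every probe set, a group of short probes that reads 1 transcript, that the platform annotation assigned to 1 of these symbols alone, which gave 12 of 22215 probe sets. CYP1A1 has 1 of them, CYP1A2 has 2, CYP1B1 has 4, AHR has 1, ARNT has 3 and TIPARP has 1. The genes were selected on the measured change of CYP1A1, the lowest of all genes between celastrol and DMSO, so the values of the 12 probe sets in that comparison are given as a description with no test.

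The groups were 2 arrays of cells given 1.25 µM celastrol, a triterpenoid from thunder god vine, and 3 arrays of cells given DMSO, all grown in RPMI with 10% serum and lysed in Trizol. Titles call the arrays of a group biological replicates, but nothing says that they came from separate cultures, so any p measures the spread between these arrays, which may be technical. The array labelled DMSO replicate 3 stands apart. Its Pearson correlation with the other 4 over probe sets was 0.843 to 0.844, against 0.994 to 0.998 among those 4. All 10 measured markers of luminal prostate cells were at least 2-fold below the mean of DMSO replicates 1 and 2 there, and their summed intensity was 236, against 16634 to 18128 on the other arrays. Of 13 measured leukocyte markers 11 were at least 2-fold higher on it, with a summed intensity of 32375 against 834 to 913 elsewhere. KLK3 and FOLH1 stood at 4.56 and 4.43 on the log2 scale there, and PTPRC, CD79A and MS4A1 at 7.98, 8.63 and 10.9, while the T cell markers CD3D and CD3E were at 4.37 and 4.25. That array is therefore shown apart, and each comparison below sets both celastrol arrays against DMSO replicates 1 and 2. On these 4 arrays the leukocyte markers PTPRC, CD79A and MS4A1 lay between 4.19 and 4.53, while LCP1 of the same list was at 9.24 to 9.41. Among luminal markers, for 7 of 10 both celastrol arrays lay below both DMSO arrays, as for 19.4% of all genes. In log2(intensity + 1) TMPRSS2 had a change of -1.08 (limma adjusted p = 0.0654, and 0.0387 once the dimmest 40% are dropped). Its other probe set had -0.17. By the brightest probe set KLK3 had a change of -0.65 and KLK2 one of -0.60, while FOLH1 had -0.08 and EPCAM 0.05. Over all their probe sets changes ran from -0.71 to -0.65 for KLK3, from -1.10 to -0.09 for KLK2 and from -0.38 to -0.08 for FOLH1. For 2 of the 10, KRT18 and KRT8, both celastrol arrays lay above both DMSO arrays, with changes of 0.27 and 0.11. The same held for 14.5% of all probe sets. The part of these differences in the values below was not tested. In bulk RNA, fewer cells with a transcript and less of it per cell cannot be told apart.

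The aryl hydrocarbon receptor is a transcription factor that waits in the cytosol in a complex with the chaperone HSP90 and the cochaperone p23. Ligands such as dioxin, polycyclic aromatic hydrocarbons and tryptophan products release it to the nucleus, where it pairs with ARNT and binds xenobiotic response elements, whose core letters are GCGTG. CYP1 genes are its best known targets. Their enzymes are heme proteins that oxidise aromatic hydrocarbons and estrogens, and TIPARP, another target, is an ADP-ribosyltransferase that feeds back to repress the receptor. In prostate cancer cells the receptor has been studied for its crosstalk with the androgen receptor.

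The receptor's own transcript was at the dim end of the arrays and showed no separation between groups. AHR had intensities of 16.6 and 13.9 on the celastrol arrays, against 14.9 and 15.8 on DMSO replicates 1 and 2. The lower quartile of all probe sets was 18.1 to 18.5 on these 4 arrays and the lowest value 10.8 to 11.3, so AHR lay below that quartile in both groups. Its change, celastrol minus DMSO in log2(intensity + 1), was -0.01 (SE 0.125), and the celastrol arrays lay on either side of both DMSO arrays. On DMSO replicate 3 it read 24.5, above each of the other 4. A transcript at this level can change without the array showing it.

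ARNT, the nuclear partner that also serves as the beta subunit of hypoxia-inducible factors, was measured by 3 probe sets of different brightness. The brightest, 218222_x_at, had intensities of 71.4 and 80.4 with celastrol, against 80.4 and 89.5 with DMSO. Probe set 218221_at gave 27.3 and 25.5 with celastrol and 29.0 and 27.5 with DMSO, and 210828_s_at gave 20.0 and 23.5 with celastrol and 23.5 and 28.8 with DMSO. All 3 were slightly lower with celastrol, but a celastrol value equalled or passed a DMSO value in 2 of them, and 218221_at alone had groups that did not overlap. The changes were -0.16 (SE 0.114), -0.10 (SE 0.0579) and -0.25 (SE 0.181). With 1 array left out they ran from -0.25 to -0.08, from -0.14 to -0.05 and from -0.40 to -0.11. On DMSO replicate 3 the 3 probe sets read 80.9, 27.3 and 23.4, inside the range of the other 4 arrays. ARNT thus had like levels on all 5 arrays. Most probe sets stayed within 2-fold on DMSO replicate 3: 7.52% were at least 2-fold above the mean of DMSO replicates 1 and 2, and 10.1% at least 2-fold below.

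CYP1A1, the inducible hydrocarbon hydroxylase that is the usual readout of receptor activity, was lower on both celastrol arrays by a wide margin. Its single probe set, 205749_at, had intensities of 23.4 and 23.6 with celastrol, against 88.4 and 98.7 with DMSO. The groups are far apart and the celastrol arrays are almost identical. In log2 the level was 4.61 ± 0.00975 (SD, n = 2) with celastrol and 6.56 ± 0.111 (SD, n = 2) with DMSO, a change of -1.95 (SE 0.0791), or 3.86-fold lower with celastrol on that scale. The difference between replicates was 0.0604 (celastrol) and 0.063 (DMSO) for the median probe set, and at the 95th percentile 0.282 and 0.271. The celastrol level lay below the array medians of 28.9 and 28.8, where further loss is hard to read, and the added 1 also shrinks the change of dim transcripts, so the size may be understated. DMSO replicate 3 read 25.7, close to both celastrol arrays and 3.54-fold below the mean of DMSO replicates 1 and 2. With that array counted as a DMSO replicate the change would be -1.34.

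Among 12165 genes CYP1A1 had the lowest change, followed by the Notch ligand JAG1 at -1.65 and the kappa opioid receptor gene OPRK1 at -1.52. Among single probe sets 1 unnamed here lay lower, at -2.13. At least 2-fold lower values were found for 1 of the 12 pathway probe sets, that of CYP1A1, and for 0.162% of all probe sets, and at least 2-fold higher values for 0 of the 12 and 0.27% of all. As CYP1A1 decided the choice of genes, nothing is read from that share.

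**Figure D1:**
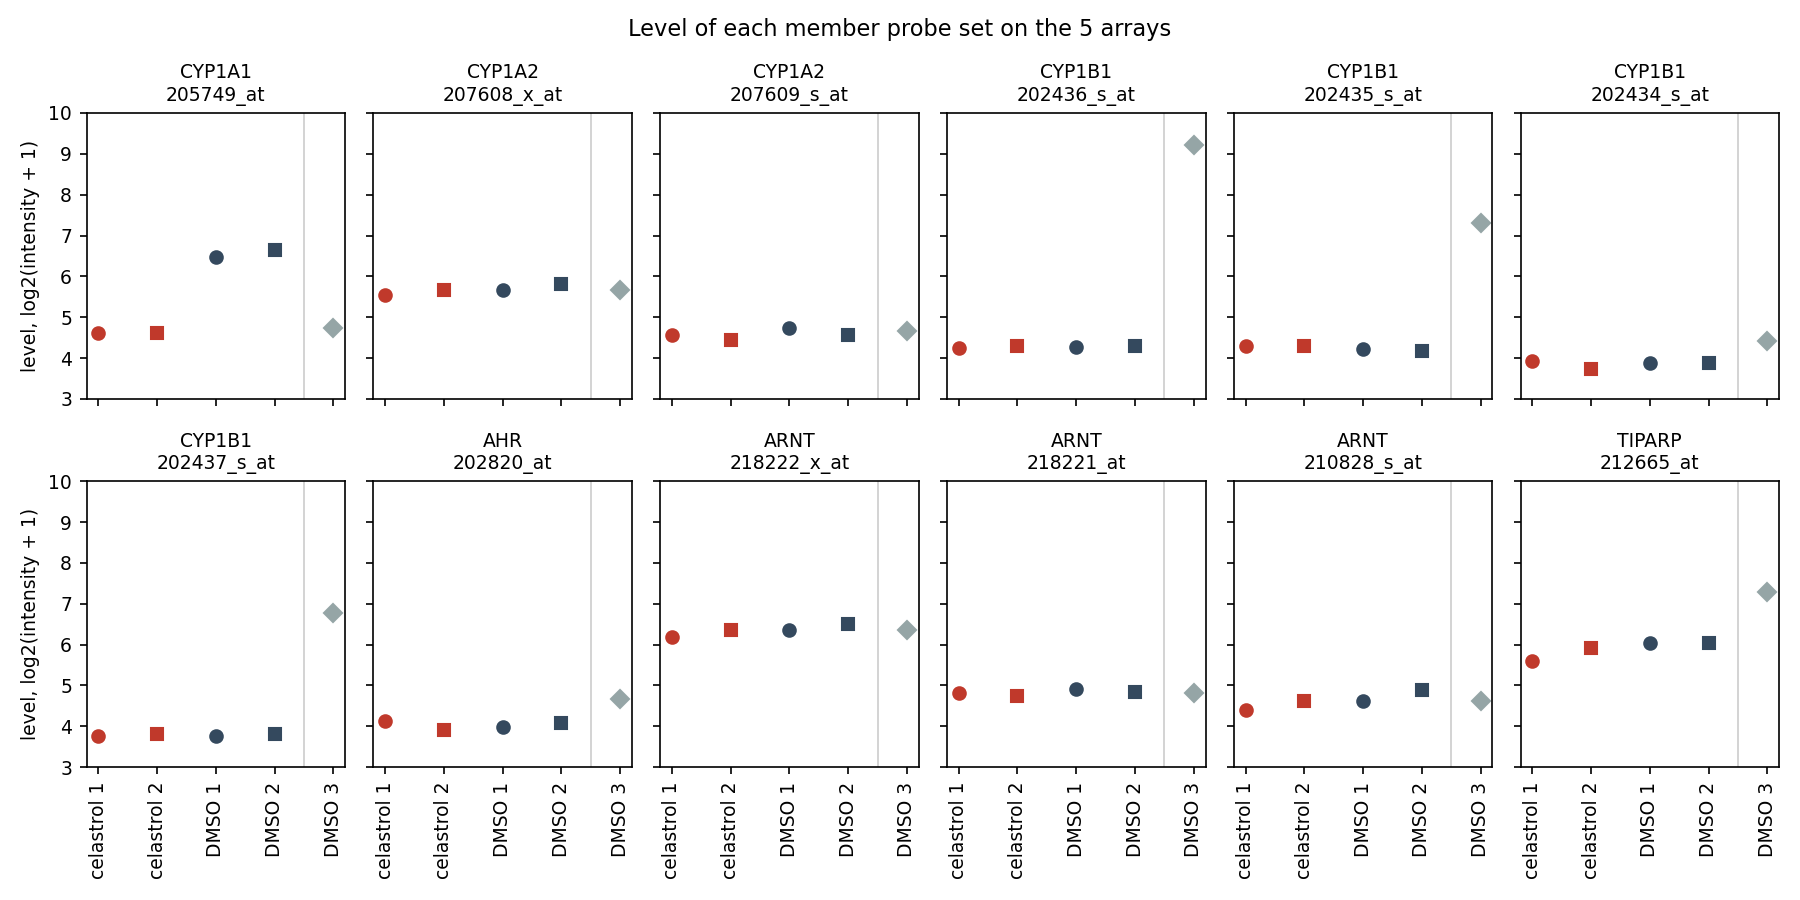
Level of the 12 probe sets, log2(intensity + 1) on the vertical axis, on each of the 5 arrays (celastrol red, DMSO replicates 1 and 2 dark blue, DMSO replicate 3 grey, right of the line). CYP1A1 is near 4.61 on both celastrol arrays and 6.48 and 6.64 on DMSO replicates 1 and 2, while 3 CYP1B1 probe sets and TIPARP are high on DMSO replicate 3 alone.

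CYP1A2, a mainly hepatic enzyme that metabolises caffeine, is the chromosomal neighbour of CYP1A1, and its difference was far smaller. Probe set 207608_x_at had intensities of 46.0 and 49.5 with celastrol, against 50.0 and 55.7 with DMSO, and 207609_s_at had 22.8 and 20.8 with celastrol, against 25.5 and 22.8 with DMSO. The changes were -0.14 (SE 0.0925) and -0.14 (SE 0.101), and with 1 array left out they ran from -0.22 to -0.07 and from -0.22 to -0.06. Groups did not overlap for the first, by a narrow gap, and touched for the second. DMSO replicate 3 gave 49.5 and 24.2, within the range of the other 4. An x or s in a probe set's suffix marks probes that can also match other transcripts.

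The start regions of both genes are shown because one gene was lower with celastrol and its neighbour showed only a small difference. They are RefSeq windows of 300 bases on GRCh38.p14, 250 before the start and 50 after, each read along its own gene: chr15:74725479-74725778 on the minus strand for CYP1A1 and chr15:74748595-74748894 on the plus strand for CYP1A2. The window of TIPARP's first listed start, chr3:156674340-156674639 on the plus strand, stands beside them as that of a second target gene. Capitals mark GCGTG or its reverse complement CACGC.
CYP1A1: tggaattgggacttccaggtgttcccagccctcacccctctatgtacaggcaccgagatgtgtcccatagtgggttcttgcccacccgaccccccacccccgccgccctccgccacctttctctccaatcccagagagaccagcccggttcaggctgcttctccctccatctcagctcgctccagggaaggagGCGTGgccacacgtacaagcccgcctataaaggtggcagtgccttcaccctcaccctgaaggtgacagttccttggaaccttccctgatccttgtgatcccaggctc
CYP1A2: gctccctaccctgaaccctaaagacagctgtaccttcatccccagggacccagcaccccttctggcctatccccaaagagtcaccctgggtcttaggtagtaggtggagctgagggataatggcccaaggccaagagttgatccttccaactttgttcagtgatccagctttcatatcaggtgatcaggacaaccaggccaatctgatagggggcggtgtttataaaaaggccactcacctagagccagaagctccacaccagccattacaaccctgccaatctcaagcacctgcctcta
TIPARP: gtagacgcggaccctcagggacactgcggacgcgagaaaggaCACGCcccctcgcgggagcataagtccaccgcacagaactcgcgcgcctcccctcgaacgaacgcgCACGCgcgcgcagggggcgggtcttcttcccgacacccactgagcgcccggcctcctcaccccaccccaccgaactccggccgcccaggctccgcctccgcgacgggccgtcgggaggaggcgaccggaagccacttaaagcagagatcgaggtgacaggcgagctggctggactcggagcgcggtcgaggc
The CYP1A1 window holds 1 GCGTG, with its first base at position -57 from the start, upstream of a TATAAA at -32. That of CYP1A2 holds none, and has TATAAA at -29 with an overlapping match on the opposite strand at -31. TIPARP's window holds 2 on the opposite strand, at -208 and -142, and its other 2 listed starts hold none. AHR's window has 1 at position 38 and that of ARNT none. Of 35116 windows of this length in the table, 36.5% hold the 5 letters on either strand, so their presence sets no window apart. The longer form TNGCGTG, found in 5.51% of all windows, was in none of the 7 windows of these 5 genes. The CYP1A1 window also holds GGAACCTTCC at position 18, a match on both strands to GAA, any 2 bases and TTC, the letters of paired heat shock element units, which 6.71% of windows hold. These are matches of letters, and enhancers farther upstream lie outside the windows.

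CYP1B1, the family member best known for estrogen hydroxylation outside the liver, was dim on both celastrol arrays and on DMSO replicates 1 and 2 with all 4 of its probe sets. For 202436_s_at intensities were 18.0 and 18.8 with celastrol and 18.2 and 18.8 with DMSO. For 202435_s_at they were 18.8 and 18.5 with celastrol and 17.5 and 17.1 with DMSO, and across 202434_s_at and 202437_s_at they ran from 12.3 to 14.3 with celastrol and from 12.6 to 13.8 with DMSO. These values sit around or below the lower quartile of probe sets. Changes were -0.01, 0.10, -0.05 and 0.00, and 202435_s_at alone had groups that did not overlap, with celastrol higher by 0.10 (SE 0.0212).

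The same probe sets were bright on DMSO replicate 3. There 202436_s_at read 594, 202435_s_at 157, 202437_s_at 108 and 202434_s_at 20.6. Relative to the mean of DMSO replicates 1 and 2 that is 30.5-fold, 8.63-fold, 7.92-fold and 1.46-fold higher, so 3 of the 4 probe sets could read CYP1B1 transcript well above the level of the other arrays. At least 2-fold higher values on that array were found for 4 of the 12 pathway probe sets, these 3 and that of TIPARP, and for 7.52% of all probe sets. At least 2-fold lower values were found for 1, that of CYP1A1, and for 10.1% of all. It is 1 array, with no replicate check.

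TIPARP was slightly lower with celastrol. Its intensities were 47.1 and 59.0 with celastrol, against 64.2 on both DMSO arrays, where the summarised values were identical. Both celastrol arrays lay below DMSO, but they differed from each other more than the nearer one differed from DMSO. The change was -0.28 (SE 0.160), and it was -0.12 without celastrol replicate 1 and -0.44 without celastrol replicate 2. DMSO replicate 3 read 154, or 2.38-fold above the mean of DMSO replicates 1 and 2. TIPARP and CYP1A1, both receptor targets, thus stood on opposite sides of the other DMSO arrays there, one higher and one lower.

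Over the 12 probe sets, 10 changes were below 0 and 2 above it, where 48.8% of all probe sets were below 0 and 48.3% above. Both celastrol arrays lay below both DMSO arrays for 4, the probe sets of CYP1A1 and TIPARP and 1 each of CYP1A2 and ARNT, and above them for 1 of CYP1B1, where 17.6% and 14.5% of all probe sets did so. The median change was -0.12, against 0.00 over all probe sets. Outside CYP1A1 the largest size was 0.28. Probe sets of 1 gene read the same transcripts and are not separate evidence, and 7 of the 12 would pass a filter that leaves out the dimmest 40%.

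**Figure D2:**
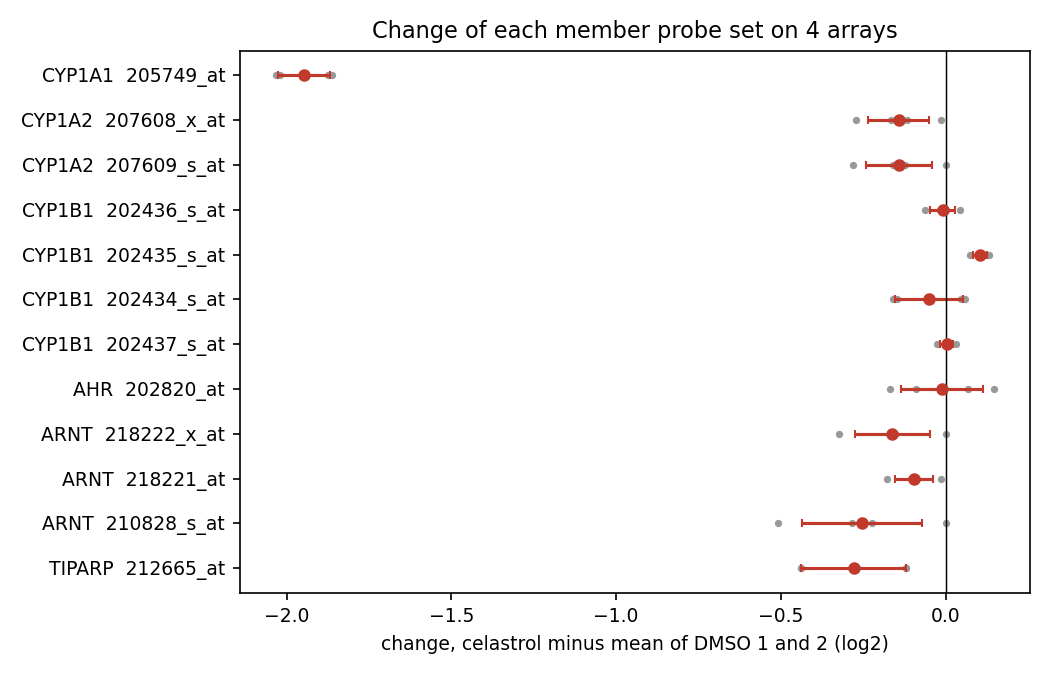
Change of the 12 probe sets, celastrol minus the mean of DMSO replicates 1 and 2 in log2 on the horizontal axis. Red points with bars are the change and its SE, and grey points the 4 differences between single arrays; CYP1A1 lies at -1.95 and every other probe set between -0.28 and 0.10.

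The next comparison asks whether other genes around the receptor differed between celastrol and DMSO on the same 4 arrays. In 8 lists, chosen with earlier results of these data known, 161 distinct genes were measured, each by its brightest probe set. The heme-degrading enzyme gene HMOX1 had by far the largest change, the quinone reductase NQO1 was higher with celastrol, and most other P450 genes were dim. By limma, with p-values adjusted over all probe sets by the Benjamini-Hochberg method, 0 of the 161 passed the threshold of 0.05, and 33, or 20.5%, had an unadjusted p under 0.05. Of all genes that test called 0.0164%, and 15.1% had an unadjusted p under 0.05, the share to set beside each list's count below. When the dimmest 40% of probe sets were dropped, it called 3 of 117 genes from the lists: HMOX1 and HSP90AA1, which rose, and NRIP1, which fell. Of all genes left by that filter it called 1.04%, 0.569% as higher and 0.47% as lower. HMOX1 was the 1 list gene at least 2-fold higher, where 0.337% of all genes were. HMOX1 and HSP90AA1 were also called without the filter after other scalings or with a larger pseudocount, and NRIP1 was called only with a dim filter among the settings run. The lists' medians, from -0.05 to 0.04, lay close to the median of all genes.

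In the receptor complex and its relatives, 7 of 16 genes had changes above 0 and 8 below, where 47.7% and 49.6% of all genes did, and 4 had an unadjusted limma p under 0.05. HSP90AA1, the inducible HSP90 that holds the receptor ready for ligand, stood at 13.14 and 13.11 with celastrol, against 12.50 and 12.48 with DMSO, a change of 0.64 (SE 0.022, limma adjusted p = 0.0622, and 0.0387 with the dim filter). HSP90AB1, its constitutive counterpart, had a change of 0.34 (SE 0.0509), and PTGES3, which encodes p23, one of 0.30 (SE 0.144). CDC37, another cochaperone of HSP90, had identical values on all 4 arrays, a change of 0.00. STUB1, a ubiquitin ligase that works with chaperones, had a change of -0.13, CUL4B, a ubiquitin ligase scaffold that the receptor itself can recruit, one of -0.26, and ARNT2, a paralogue of ARNT, one of -0.29. BMAL1, a clock partner of the same protein family, had a change of 0.23. The receptor repressor AHRR was not analysed here.

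Changes of other known targets of the receptor lay on both sides of 0. Of 20 measured, 11 had changes above 0 and 8 below, with a median of 0.03, and 6 had an unadjusted limma p under 0.05. NQO1, a quinone reductase that the receptor and NRF2 both control, had levels of 11.62 and 11.55 with celastrol, against 10.59 and 10.77 with DMSO. Its 3 probe sets had changes of 0.90 to 0.96, all higher with celastrol (adjusted p = 0.112 by limma for the brightest). STC2, a secreted glycoprotein gene induced by stress, had a change of 0.68 (limma adjusted p = 0.0981), and SCIN, an actin-severing protein gene near the floor, one of 0.14. On the lower side CCNG2, an unconventional cyclin linked to growth arrest, had a change of -0.42 (limma adjusted p = 0.103), with all 3 of its probe sets below 0. UGT1A6, a conjugating enzyme near the floor whose exons are partly shared with other UGT1A genes, had -0.14 and the growth regulator MYC -0.13. No gene of this list was 2-fold lower, where 0.181% of all genes were.

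The coregulators and factors known at CYP1 promoters had 9 of 21 changes above 0 and 12 below, and 5 an unadjusted limma p under 0.05. NRIP1, a corepressor that also binds the receptor, stood at 7.04 and 7.06 with celastrol, against 7.50 and 7.48 with DMSO. Its change of -0.44 (SE 0.021) had a limma adjusted p of 0.0734, and 0.0481 with the dim filter, and its other probe set was also below 0. The coactivators NCOA2 and CREBBP had changes of 0.22 and 0.27, ESR1, the estrogen receptor gene, 0.16, RB1, the retinoblastoma gene, -0.18, and VDR, the vitamin D receptor gene, -0.31, with limma adjusted p of 0.212 or more. Probe sets of NCOA2, CREBBP, ESR1 and VDR did not all share 1 sign.

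Enzymes that serve P450s with electrons and heme included the list gene with the largest difference. HMOX1, the inducible enzyme that breaks heme down, stood at 11.94 and 12.24 with celastrol, against 5.98 and 6.33 with DMSO, a change of 5.94, or 61.4-fold (SE of the change 0.192, limma adjusted p = 0.0622, and 0.0315 with the dim filter). NADK, which makes NADP, had a change of 0.46, with all 5 of its probe sets above 0, and POR, the reductase that passes electrons to microsomal P450s, one of 0.22. CYB5B, PGRMC2 and CYB5A, which encode heme-binding partners, had changes of -0.08, -0.09 and -0.07. Probe sets of PGRMC2 and CYB5A did not all share 1 sign. In this list 5 of 14 changes were above 0 and 9 below, and 6 had an unadjusted limma p under 0.05.

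Among enzymes that conjugate or reduce P450 products, 11 of 24 changes were above 0 and 13 below, and 4 had an unadjusted limma p under 0.05. NQO2, a second quinone reductase, stood at 9.10 and 9.07 with celastrol, against 8.61 and 8.54 with DMSO, a change of 0.51 (limma adjusted p = 0.0949). UGDH, which makes the sugar donor of glucuronidation, had a change of 0.89 (SE 0.162, limma adjusted p = 0.205). The glutathione transferase genes GSTK1 and MGST3 had changes of -0.12 and -0.11. NQO1, of the list above, is the other quinone reductase.

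For the 38 other cytochrome P450 genes measured, changes of the brightest probe set lay between -0.21 and 0.21. Of these 26 were above 0 and 10 below, with a median of 0.04. Of all genes 47.7% had changes above 0 and 49.6% below. Only 12 of them would pass the dim filter. By limma 2 had an unadjusted p under 0.05, CYP21A2, a steroid hydroxylase gene near the floor that has a near-identical pseudogene, at 0.16, and CYP51A1, the sterol demethylase of cholesterol synthesis, at 0.15. CYP51A1 was bright, at 9.15 and 9.14 with celastrol and 8.95 and 9.04 with DMSO. Its other probe set had a change of 0.40, outside the range above. CYP2R1, which hydroxylates vitamin D, had a change of 0.18, and CYP2E1, CYP27B1 and CYP26A1 had changes of -0.14, -0.11 and -0.18. Over all probe sets of CYP2E1 changes ran from -0.23 to 0.04. CYP1A1, at -1.95, was chosen for its low change, so nothing is read from its distance to the other P450 genes.

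Targets of hypoxia-inducible factors, which also need ARNT, had 11 of 19 changes above 0 and 8 below, and 7 an unadjusted limma p under 0.05. VEGFA, the vascular growth factor, stood at 8.77 and 8.58 with celastrol, against 8.01 and 8.05 with DMSO, a change of 0.64 (limma adjusted p = 0.147). BHLHE40, a transcriptional repressor, had a change of 0.42, but its other probe set had one of only 0.005. P4HA1, a collagen prolyl hydroxylase subunit, had a change of 0.46. TFRC, the transferrin receptor, had a change of -0.36, EGLN3, a prolyl hydroxylase, -0.20, and LDHA, lactate dehydrogenase A, -0.17. For PARP genes beside TIPARP, 6 of 12 changes were above 0 and 6 below, with 0 calls by limma and 0 with an unadjusted p under 0.05. TNKS, TNKS2 and PARP6 had changes of 0.38, 0.10 and 0.10, and PARP8, PARP1 and PARP16 of -0.29, -0.05 and -0.08.

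**Figure D3:**
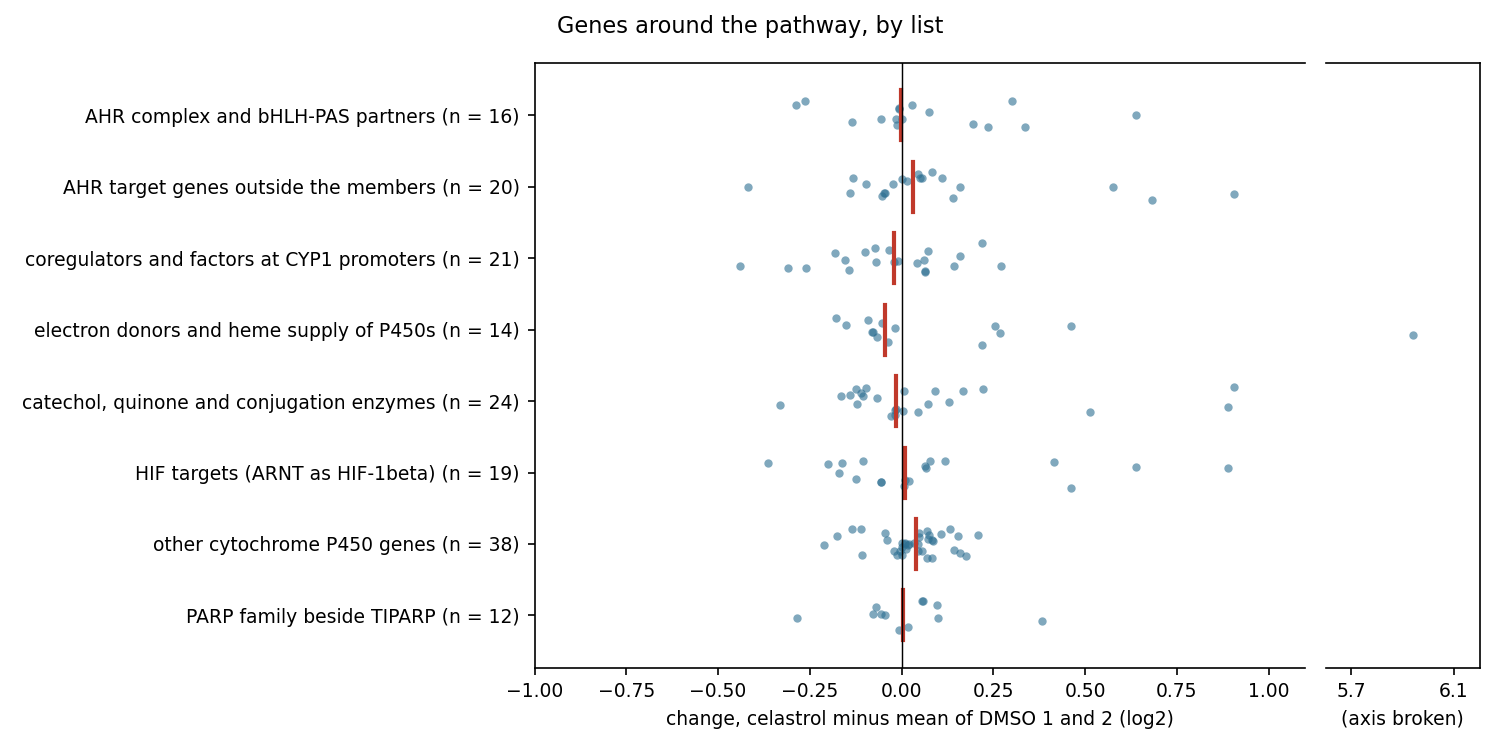
Change of each measured gene of the 8 lists, celastrol minus the mean of DMSO replicates 1 and 2 in log2 on the horizontal axis, which is broken right of 1; each point is 1 gene, red bars are list medians, and a gene may stand in more than 1 list. Medians lie between -0.05 and 0.04, and HMOX1 stands alone at 5.94.

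Profiles over the 4 arrays were compared by Euclidean distance, after each gene's mean of DMSO replicates 1 and 2 was taken off. The genes nearest to CYP1A1 were JAG1, at a distance of 0.431, OPRK1 at 0.61, IL1RN, the interleukin-1 receptor antagonist, at 0.757, SESN1, a stress-induced regulator of growth signalling, at 1.04, and ZBTB43, a zinc finger gene, at 1.09. On DMSO replicate 3 their differences from the mean of DMSO replicates 1 and 2 were -2.43, -2.13, -2.34, -4.31 and -1.79 in log2. Of all probe sets 10.1% were at least 2-fold below that mean there. These genes were picked for standing higher on DMSO replicates 1 and 2 than with celastrol, so nothing is read from those differences. TIPARP, with a small change, had close matches in HCRP1, ZNF692, BCL7B, LDAF1 and PLEKHM2, at distances of 0.0204 to 0.0681, as many genes of small change would. With 4 arrays in 2 groups such likeness mostly reflects the size of the change.

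**Figure D4:**
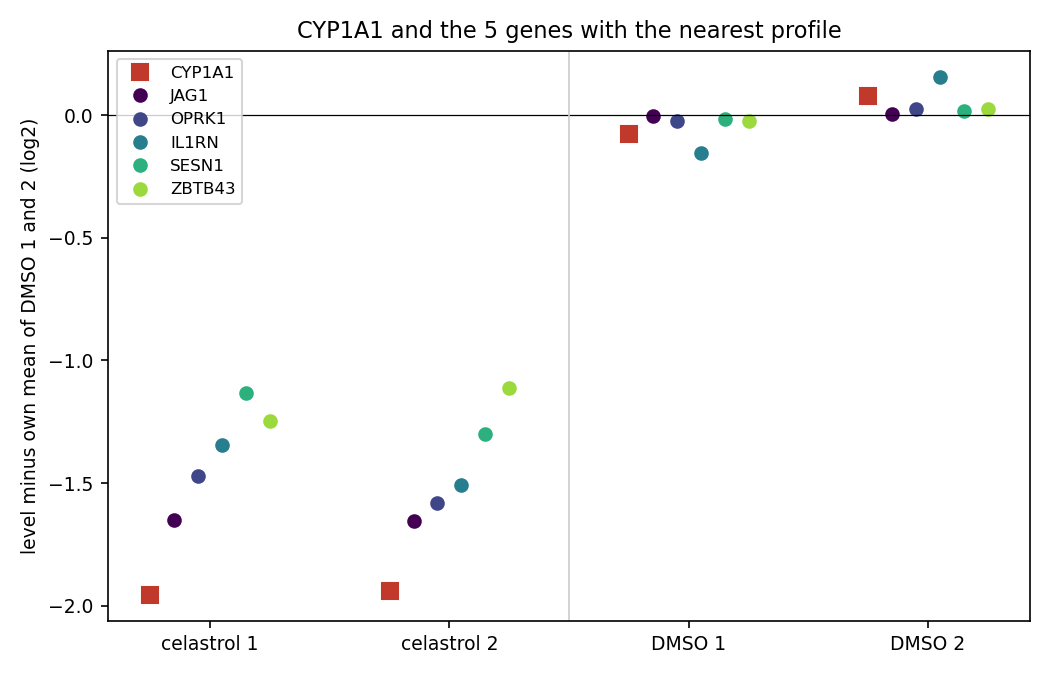
Level of CYP1A1 (red squares) and of the 5 nearest genes (circles) on each of the 4 arrays, minus the gene's own mean of DMSO replicates 1 and 2, in log2. All 6 are lower on both celastrol arrays than on either DMSO array, CYP1A1 most.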

How the data were processed

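The authors deposited 1 table of intensity values on a linear scale, 1 per probe set and array, made with RMA per the submitters' processing notes (which release of RMA is not given in the sources used here). Samples were grouped by their titles, since the description field of the DMSO samples names celastrol. Levels are log2(value + 1), without further normalization. Of 22215 probe sets 19724 name 1 gene, 568 several, and 1923 are unnamed here. The look-up by Entrez ID in RefSeq's gene table changed 0 symbols. Among probe sets that name 1 gene, the one with the highest mean over the 4 arrays stands for it in the lists, and for the 6 pathway genes every probe set is given.

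Limma 3.58.1 (lmFit and eBayes, R 4.3.3, two-sided) was fitted to 4 arrays over all probe sets, with a threshold of 0.05. Genes and lists were chosen with earlier results of these data known. The text names every member probe set, each list gene called in that fit or with the dim filter, up to 3 of smallest p a list and direction, HMOX1, the 5 nearest profiles and 5 cell type markers. PTGES3, CDC37, CD3D, CD3E, LCP1, TMPRSS2, KLK2, KRT8, KRT18 and EPCAM were named after their values were seen. The number of arrays limits the precision. The numbers of replicates were not taken as pairs, since the differences between replicates 1 and 2 in celastrol and in DMSO correlated at r = -0.0197. Sequences come from RefSeq's GRCh38.p14 table, which held 5 of the 6 genes. Alternatives covered DMSO replicate 3, a dim filter, the pseudocount, normalization, the variance model, a replicate block and each array left out.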

Additional observations from a re-analysis of the deposited data

Results flagged for a closer look

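The array labelled DMSO replicate 3, which is left out of the celastrol comparison, held signal of 2 pathway genes at least 2-fold above each of the other 4 arrays. Relative to the mean of DMSO replicates 1 and 2, CYP1B1 was higher on it by 4.93 in log2 with probe set 202436_s_at, by 3.11 with 202435_s_at and by 2.99 with 202437_s_at. TIPARP was higher by 1.25. Leukocyte markers were high and luminal markers low on the same array, and their part in these values was not tested. It is a single array, so no spread can be given.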

How the results depend on the processing

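The count of probe sets called by limma was 2 (1 higher, 1 lower) and moved with most settings. It was 121 (67 higher, 54 lower) and 130 with the dim filter over the 4 and over all 5 arrays, 43 (26 and 17) with log2(value + 16), 197 (121 and 76) after quantile normalization and 139 (86 and 53) after median centring. It was 0 on all 5 arrays, 0 with the replicate block and 0 to 0 with 1 array left out, and 2 (2 higher, 0 lower) with trend and robust variance. Of the genes of the 8 lists 0 were called, against 3 with either dim filter, 2 with log2(value + 16), 4 after quantile normalization (HMOX1, HSP90AA1, NQO1 and STC2) and 2 after median centring. The filter tests fewer genes, and its fit was also run anew on the probe sets kept. The cause of a moved count was not tested for any setting. The dim filter over all 5 arrays was chosen after seeing the data. The change of CYP1A1 was -1.34 on all 5 arrays and -1.47 with log2(value + 16), a larger pseudocount that shrinks dim values, and ran from -2.03 to -1.87 with 1 array left out. Changes of AHR and of 3 CYP1B1 probe sets took either sign when 1 array was left out. On all 5 arrays CYP1B1's changes were -0.23 to -1.65.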
